A study of Drosophila melanogaster with 5 samples.

Results

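Ion channels set how a neuron fires: voltage-gated sodium and calcium channels carry inward current, potassium channels end the spike and hold the membrane at rest, and auxiliary subunits change how much channel reaches the membrane and how fast it gates. In Drosophila neurons one gene, para, supplies the voltage-gated sodium channel, whereas potassium currents are shared among many genes that were found largely through shaking, seizure and flight mutants. The channel genes described here are 31 genes of sodium, calcium and potassium channels, their auxiliary subunits and 3 further channels. They were taken by symbol, using each probe set to which the array's annotation gives exactly 1 gene symbol. In all 29 of the 31 genes were found, through 55 of the 13966 probe sets tested, and 10844 genes were measured on the array. KCNQ, a slow voltage-gated potassium channel gene, and qvr, also called sleepless, which encodes a membrane-anchored modulator of Shaker channels, were not named by the annotation and were not analysed here.

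The 5 arrays compare GFP-sorted Drosophila melanogaster neurons from 2 sources. Cells from embryo cell cultures were sorted for 4 arrays, here embryo culture a, b, c and d, and cells of dissociated larval brain were sorted for 1 array, with total RNA in each case. Both sources carried the same transgenes, 7.4 kb Cha-Gal4:UAS-GFP, in which regulatory DNA of Cha, the choline acetyltransferase gene, drives GFP through Gal4, so that cells were kept by the activity of this driver and no array holds cells outside the gate. Age, sex, culture time and any pooling of animals are not stated in the labels, nor whether the 4 cultures were separate, so that p-values measure the spread between these arrays, which may be technical.

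Signals are probe set intensities on the scale of the deposited table. A signal was taken as above background where it exceeded the highest of the same array's 23 control probe sets of bacterial, yeast or mouse origin. That limit was 148, 200, 119 and 271 for embryo culture a to d and 82.6 for larval brain, so that the same signal can count as background on d and not in larval brain. Hybridisation controls had a geometric mean signal of 12009 on d against 2995 to 4913 on the other 4 arrays. The mean log2 ratio of 3′ to middle signal over the control transcripts eIF-4a, GAPDH and actin was 2.45 and 2.35 on a and b, 1.49 and 1.66 on c and d and 1.15 in larval brain. The cell type label was checked with marker genes. All 7 measured neuron markers and 3 cholinergic markers, ChAT among them, were above background in larval brain, against 2 and 2 of them on all 4 embryo culture arrays. Summed neuron marker signal ran from 1749 to 3919 in embryo culture and was 6509 in larval brain. For the other lists these sums were 3559 to 6150 and 3259 (glia, 7 genes), 4182 to 8481 and 4653 (muscle, 6 genes), 897 to 3443 and 676 (blood cells, 6 genes), 7574 to 14461 and 1034 (gut and Malpighian tubule, 5 genes) and 1257 to 1857 and 7099 (neural progenitors, 6 genes). No marker was listed at 0, and 3 gut markers (Npc2e, hoka and Jon65Aiv) fell and the progenitor marker pros rose past the threshold in larval brain. Without elav, the brightest neuron marker in larval brain, the neuron sum was 1645.3 to 3252.5 in embryo culture and 3462.1 in larval brain. By gene, elav, nSyb, brp and fne lay above all 4 embryo culture arrays in larval brain and Syn below them. Without pros the progenitor sum was 913 to 1549.6 in embryo culture and 3263.8 in larval brain. In larval brain the actin gene Act87E, at 4130, made up most of the muscle sum. Without it the other 5 muscle genes summed to 3496, 3220, 5116 and 694 on a to d and 523 in larval brain, and the median difference of the 6 (larval brain minus embryo culture, log2) was -1.22. The part of these other cell types in the results on channel genes was not tested. In RNA of sorted cells, fewer cells of a type and less RNA per cell cannot be told apart.

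Of the 29 channel genes 1 changed past the threshold between the sources: slo, which encodes the BK potassium channel opened by calcium and voltage together, fell in larval brain. That is 3.45% of the channel genes, where 2.78% of all 10844 genes passed in this direction (limma, adjusted p under 0.05 by Benjamini-Hochberg over all probe sets). None of the 29 rose, where 0.812% of all genes did. By probe set the count was 1 of 55 lower and 0 higher, against 2.39% and 0.866% of all probe sets. At an unadjusted p under 0.05 there were 4 lower genes (slo, Shab, Elk and Irk3), or 13.8%, against 8.78% of all genes, and 0 higher genes against 8.42%. Differences are larval brain minus embryo culture on the log2(signal + 47.4) scale, which understates changes of dim genes. Their median was -0.14 over the channel genes and -0.07 over all genes. Of the channel genes 17 were negative and 12 positive, against 5819 and 5025 of all 10844 genes. The median standard error (SE) was 0.63, and the smallest difference called among all probe sets was 1.35 in size.

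The larval brain signal was also placed against the 4 embryo culture signals of each gene, with no test of the shares. Larval brain lay below all 4 embryo culture arrays for 9 channel genes (31.0%), against 29.6% of all genes. It lay above all 4 for 5 channel genes (17.2%), against 26.2% of all genes, and within their range for 15. On all 5 arrays, 10 channel genes (34.5%) were above background, against 41.3% of all genes, and 6 (20.7%) were at or under background, against 18.6%. The 10 were NaCP60E, Ca-alpha1D, Sh, Shal, sei, SLO2, SK, sand, Ca-beta and ClC-a, and the 6 were para, eag, Task7, Teh1, stj and na.

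**Figure D1:**
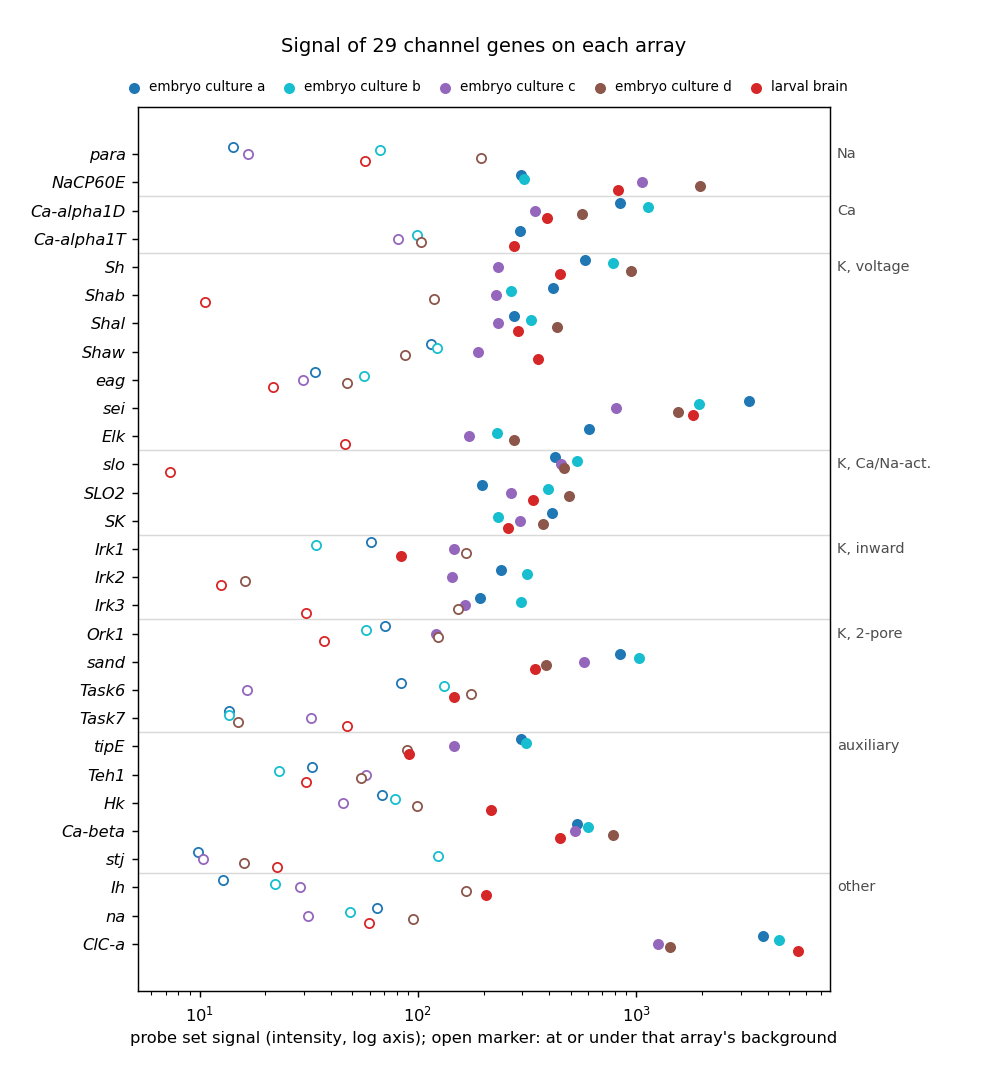
Probe set signal (log axis) of the 29 channel genes on the 4 embryo culture arrays and the larval brain array, grouped by role; open markers lie at or under the background of their array. The 4 embryo culture signals of slo lie together between 425 and 532 and its larval brain signal at 7.3, while for para, eag, Task7, Teh1, stj and na all markers are open.

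The sodium channel genes differed in whether they were detected. The signal of para, the voltage-gated sodium channel of fly action potentials, was 14.2, 67.0, 16.6 and 195 on embryo culture a to d and 57.4 in larval brain. All 5 values were at or under background, so its single probe set gives no level for para in either source. NaCP60E encodes DSC1, a relative of sodium channels. Its brightest probe set read 297, 305, 1060 and 1959 on embryo culture a to d and 822 in larval brain, above background throughout. Larval brain lay within the embryo culture range (log2 difference 0.27 ± 0.90 SE, limma adjusted p = 0.916). The sign of this difference was not settled. It was 1.32 ± 0.36 against a and b alone and -0.78 ± 0.49 against c and d alone. It was -1.74 ± 0.66 with the 3′ to middle ratio as a covariate and -2.82 ± 0.69 with the 3′ to 5′ ratio (adjusted p = 0.249 and 0.0753). These covariate fits extrapolate, since larval brain lies outside the embryo culture range of both ratios. Embryo culture a and b were lower than c and d, and the spread among the 4 arrays was the widest of the 29 genes on the log2 scale (SD 1.26). By its suffix this probe set holds probes shared by several transcripts, so part of its signal may come from another transcript. The other 2 probe sets of NaCP60E did not exceed background in embryo culture, and 1 of them was just above it in larval brain at 97.4.

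Of the 2 calcium channel pore genes, the L-type gene Ca-alpha1D was above background on every array. Its signal was 838, 1130, 343 and 562 on embryo culture a to d and 392 in larval brain. The larval brain value lay between those of c and d, and the difference was -0.68 ± 0.61 (adjusted p = 0.647). The T-type gene Ca-alpha1T, whose channel opens at low voltage, read 293, 99.2, 80.6 and 104 in embryo culture and 274 in larval brain. Only array a and the larval brain array were above background for it (difference 0.87 ± 0.75, adjusted p = 0.634). Its other 2 probe sets lay at or under background on all 5 arrays.

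Potassium channel pore genes make up 17 of the 29, with slo the one past the threshold. Their differences were negative in 12 and positive in 5, against 5819 and 5025 of all 10844 genes, with no test of the shares. Of the 17, 2 were at or under background on all 5 arrays. Larval brain lay below all 4 embryo culture arrays in 8 of them (47.1%, against 29.6% of all genes). It lay above all 4 in 2 (11.8%, against 26.2%). Of the 8, sand alone was above background in larval brain, so that for the rest this order rests on larval brain signals at background. Of the voltage-gated class, 7 were measured and 0 passed the threshold. The 4 members named for Shaker and its relatives Shab, Shal and Shaw encode separate channel families with fast or slow inactivation. Sh, the fast-inactivating A-type channel, read 580, 779, 232 and 944 on embryo culture a to d and 449 in larval brain. Its larval brain value was inside the embryo culture range (difference -0.31 ± 0.67, adjusted p = 0.867). It has 4 probe sets, all above background in larval brain, and their differences ran from -0.31 to 0.35. Shal, the A-type channel of cell body and dendrites, stood at 275, 328, 232 and 433 and at 287 in larval brain. These values overlapped as well (difference -0.09 ± 0.58, 95% interval -1.39 to 1.21, adjusted p = 0.957).

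Shab, the main delayed rectifier gene, had a lower signal in larval brain without passing the threshold. It read 414, 268, 228 and 119 on embryo culture a to d and 10.6 in larval brain. The larval brain value was under background and below all 4 embryo culture arrays, of which a, b and c were above background (difference -2.30 ± 0.73, unadjusted p = 0.0119, adjusted p = 0.151). The other 2 probe sets of Shab were at or under background on all 5 arrays, with differences of -0.12 and -0.44. With embryo culture a and b alone the difference was -2.72 ± 0.58, and with the mean of the 3 probe sets it was -0.95. With the 3′ to middle ratio as a covariate it was -1.51 ± 0.93, and with the 3′ to 5′ ratio -0.90 ± 1.11, both by extrapolation to larval brain.

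Shaw, a slowly gating channel gene, went the other way in signal. It read 115, 122, 188 and 87.5 on embryo culture a to d, where c alone was above background, and 356 in larval brain. Larval brain lay above all 4 embryo culture arrays, but the difference of 1.23 ± 0.66 did not pass (adjusted p = 0.420). The second Shaw probe set was at or under background everywhere.

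The ether-a-go-go family has 3 members on the array. The fly ERG gene sei, known for temperature-sensitive seizures when mutated, read 3274, 1940, 806 and 1556 on embryo culture a to d and 1826 in larval brain. All were far above background and overlapped (difference 0.11 ± 0.63, adjusted p = 0.952). Elk, the eag-like channel gene, was above background on all 4 embryo culture arrays, at 607, 230, 171 and 276, and under it in larval brain at 46.4. Averaged as log2 values, the embryo culture signals were 3.45-fold above the larval brain background. On d the signal was close to its own background (276 against 271), so this fold is no firm lower limit. The difference of -1.84 ± 0.74 did not pass (limma unadjusted p = 0.0345, adjusted p = 0.264). The second Elk probe set was at or under background on all 5 arrays. The founding member eag stood at 33.9, 56.8, 29.9 and 47.5 in embryo culture and 21.6 in larval brain, all of them background.

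The potassium channels opened by calcium or sodium hold the one called gene. The only slo probe set read 425, 532, 453 and 469 on embryo culture a to d, a mean of 470 ± 45.4 (SD, n = 4), and 7.3 in larval brain. The 4 embryo culture values were above background and within 1.25-fold of each other, the narrowest spread of the 29 genes, and larval brain lay far below them and under its background of 82.6. The fall was at least 5.67-fold against that background, with a log2 difference of -3.24 ± 0.56 (95% interval -4.49 to -1.98, limma adjusted p = 0.0157). The SE is 0.56 after limma's moderation, which lends each gene the spread of genes of like signal. From the 4 slo values alone it would be 0.14. In larval brain 2.22% of all probe sets had a signal as low as that of slo, and with 1 probe set on 1 array there is no second reading of it. The call was lost without embryo culture b (adjusted p = 0.0531). It was also lost with a 3′ ratio of the control transcripts as a covariate (adjusted p = 0.0539 for 3′ to middle and 0.121 for 3′ to 5′). The difference itself stayed between -3.25 and -3.18 in these fits. The covariate fits extrapolate, since larval brain lies outside the embryo culture range of both ratios. Besides neurons, slo is known from fly muscle, midgut and trachea. Larval brain also lay below all 4 embryo culture arrays in the summed gut and tubule signal and, without Act87E, in the summed muscle signal. The muscle light chain genes Mlc1 and Mlc2 had differences of -2.57 ± 0.96 and -2.35 ± 0.86. Their unadjusted limma p-values were 0.0256 and 0.0233 and their adjusted p-values 0.226 and 0.216. The troponin gene up had a difference of -1.87 ± 1.02. The other muscle markers did not all fall: Tm2 had a difference of -0.57 ± 0.75, within the embryo culture range. Those of sls and Act87E were positive, 0.60 ± 0.46 and 0.71 ± 0.48, with larval brain above all 4 embryo culture arrays. On embryo culture d, where the muscle sum without Act87E was 694 against 3220 to 5116 on the other 3, slo read 469 as against 425 to 532. The part of muscle and gut RNA in the fall of slo was not tested.

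**Figure D2:**
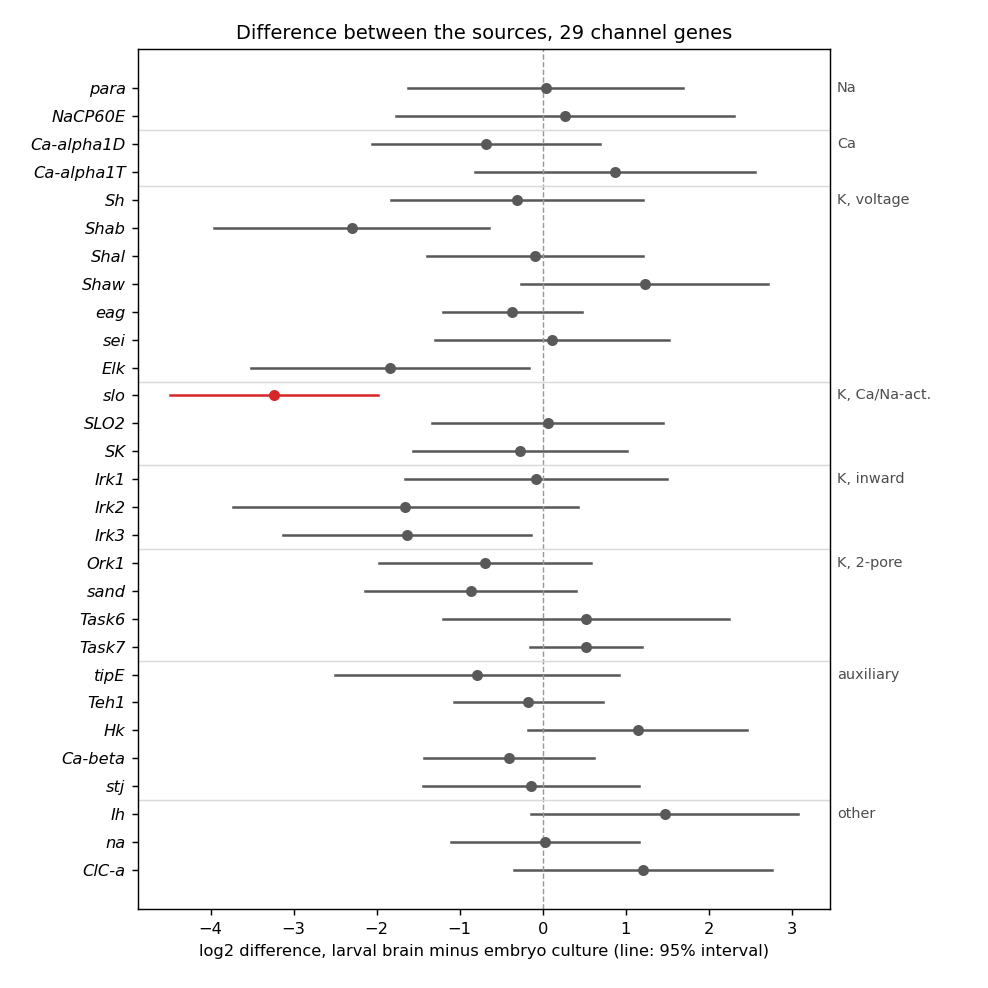
Log2 difference between larval brain and embryo culture for each of the 29 channel genes, with its 95% interval from limma; red marks an adjusted p under 0.05. The interval of slo runs from -4.49 to -1.98 and is the only one in red, while those of Shab, Elk and Irk3 leave out 0 without passing after adjustment over all probe sets.

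The other genes of this class did not follow slo. SLO2, a relative of the mammalian sodium-activated potassium channels, had a brightest probe set at 197, 394, 266 and 491 on embryo culture a to d and 336 in larval brain, above background and within range (difference 0.06 ± 0.62, adjusted p = 0.976). A second SLO2 probe set behaved differently. It read 77.6, 62.4, 52.7 and 59.7 in embryo culture, at or under background, and 275 in larval brain (difference 1.55 ± 0.56, limma unadjusted p = 0.0215, adjusted p = 0.208). That is 1.56-fold above the mean embryo culture background, but only just above the background of d (271), so almost no rise is bounded against d. The third probe set of SLO2 was at background on all arrays. SK, the small-conductance channel gated by calcium alone, read 411, 233, 293 and 375 in embryo culture and 257 in larval brain (difference -0.28 ± 0.57, adjusted p = 0.858). All 5 SK probe sets had negative differences, from -1.14 to -0.28, and none passed. One of these, above background on all 5 arrays, read 372, 687, 361 and 306 in embryo culture and 182 in larval brain, below all 4.

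The 3 inward rectifier genes, which pass potassium inward more readily than outward and are also known from the Malpighian tubule, were each dim on some arrays. Irk1 stood at 60.8, 34.0, 146 and 166 on embryo culture a to d and 83.3 in larval brain, above background on c and just above it in larval brain. Its difference was -0.08 ± 0.70 (adjusted p = 0.972). Irk2 read 241, 314, 143 and 16.1 in embryo culture, above background except on d, and 12.5 in larval brain. Array d and larval brain were both under background for this gene (difference -1.65 ± 0.92, adjusted p = 0.443). Irk3 gave 192, 297, 164 and 152 in embryo culture, with d again under its background, and 30.8 in larval brain, below all 4. The Irk3 difference of -1.63 ± 0.66 had an unadjusted p of 0.0353 and an adjusted p of 0.264.

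The 2-pore potassium channels carry resting leak current, and 4 were measured. One of them, the sandman gene sand known from sleep-control neurons, was detected in both sources. Its signal of 841, 1026, 575 and 387 on embryo culture a to d and 343 in larval brain was above background throughout, and larval brain lay below all 4, near d. The difference was -0.87 ± 0.56 (95% interval -2.13 to 0.40, adjusted p = 0.513). Ork1, the open rectifier gene, was at 70.6, 57.6, 121 and 123 in embryo culture and 37.3 in larval brain, above background on c alone. Task6 read 83.3, 132, 16.4 and 175 in embryo culture, all at or under background, and 146 in larval brain, above it. Task7 was at background on all 5 arrays, from 13.7 to 47.1. None of these 3 passed, with adjusted p-values of 0.611, 0.794 and 0.455.

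Of the auxiliary subunits, 5 were measured and 0 passed. The sodium channel subunit tipE, needed for full para current, read 296, 313, 146 and 89.5 on embryo culture a to d and 91.1 in larval brain. It was above background on a, b and c and just above it in larval brain (difference -0.79 ± 0.76, adjusted p = 0.675). The second tipE probe set had a difference of the opposite sign, 0.70 ± 0.65. Teh1, a tipE homologue, was at background on every array, from 23.2 to 57.7. The Shaker beta subunit gene Hk stood at 68.1, 78.1, 45.6 and 98.6 in embryo culture, at or under background, and at 215 in larval brain. That is 1.22-fold above the mean embryo culture background, but under the background of d (271), so no rise is bounded against d. The Hk difference of 1.15 ± 0.58 did not pass (adjusted p = 0.392).

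The calcium channel subunits split in the same way as the sodium channel genes. Ca-beta, the cytoplasmic beta subunit gene, read 537, 599, 523 and 783 on embryo culture a to d and 445 in larval brain. All were above background, and larval brain was just below the lowest embryo culture value (difference -0.40 ± 0.45, 95% interval -1.43 to 0.62, limma adjusted p = 0.725). The other 2 probe sets of Ca-beta were above background on 1 and 2 embryo culture arrays and in larval brain. For both, larval brain lay inside the embryo culture range (differences 0.21 ± 0.86 and -0.17 ± 0.72). The alpha2delta gene stj, which acts in synapse formation as well as in channel trafficking, was at background on all 5 arrays. Its values were 9.8, 124, 10.4 and 15.9 for embryo culture a to d and 22.7 for larval brain.

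The last group holds 3 channels of other kinds. ClC-a, a chloride channel gene also known from glia and the Malpighian tubule, read 3820, 4503, 1260 and 1433 on embryo culture a to d and 5529 in larval brain. Larval brain was above all 4, but close to a and b and well above c and d. The difference over the 4 arrays was 1.21 ± 0.69 (adjusted p = 0.454). Against c and d alone it was 2.003 ± 0.45, whereas against a and b alone it was 0.41 ± 0.23. Each of these fits sets a pair of embryo culture arrays against the lone larval brain array, so its spread comes from that pair, moderated over genes. With the 3′ to middle ratio as a covariate it was 2.80 ± 0.40 (adjusted p = 0.0055) and with the 3′ to 5′ ratio 3.41 ± 0.58 (adjusted p = 0.0166). Both fits extrapolate, since larval brain lies outside the embryo culture range of these ratios. The bright ClC-a probe set carries a suffix for probes that break some design rules of the array. A second ClC-a probe set went the other way, with 201, 291, 184 and 211 in embryo culture and 153 in larval brain (difference -0.41 ± 0.62). The third was at background throughout.

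Ih, the hyperpolarisation-activated cation channel gene, read 12.8, 22.1, 28.9 and 167 on embryo culture a to d, all at or under background, and 205 in larval brain. Larval brain was above all 4 and above its background (difference 1.47 ± 0.71, adjusted p = 0.360). It was 1.17-fold above the mean background of the 4, but under the background of d (271), so no rise is bounded against d. Against a and b alone the difference was 1.96 ± 0.41. The second Ih probe set lay at or under background on all 5 arrays. The cation leak channel gene na, or narrow abdomen, which sets resting excitability in clock neurons, stood at 64.7, 48.8, 31.5 and 95.4 in embryo culture and 59.5 in larval brain, all background.

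The sign of the difference often varied between probe sets of one gene. Of the 15 channel genes with several probe sets, 6 had differences of one sign in all of them and 9 of both signs. The 6 were Shab, Elk, SK, Irk1, Irk2 and Hk. Each of these 6 has a probe set at or under background on all 5 arrays, as have the 9 apart from Sh, tipE and Ca-beta. The sign of such a probe set says little, so these counts do not measure agreement well. Which exons or isoforms each probe set reads is not given in the sources used here.

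**Figure D3:**
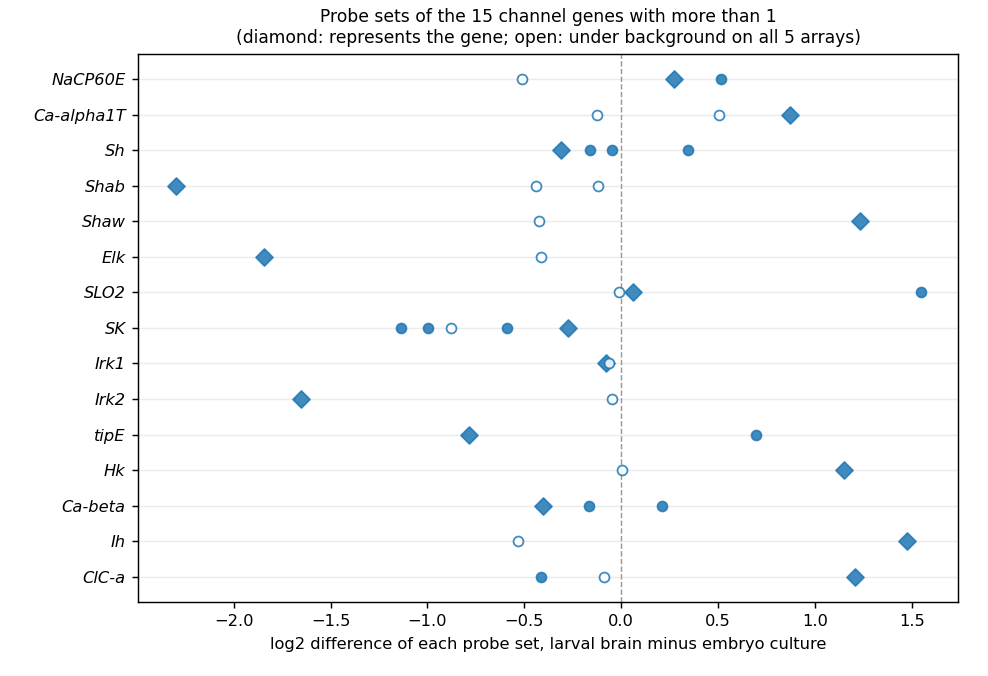
Log2 difference of every probe set of the 15 channel genes that have several, with a diamond for the one that represents the gene and open markers for those at or under background on all 5 arrays. The SK probe sets all lie left of 0, from -1.14 to -0.28, while ClC-a, SLO2 and tipE have filled markers that lie far apart.

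Related genes of excitability outside the 31 were counted for comparison. Of 47 such genes on a list of further channels, channel subunits and regulators, ion pumps and transporters, TRP and intracellular calcium channels and gap junction genes, 38 were measured. Of these 1 fell and 1 rose past the threshold, against 2.78% and 0.812% of all genes. The sodium pump beta subunit gene nrv1 fell, from 2433, 2358, 4145 and 3146 on embryo culture a to d to 595 in larval brain (difference -2.22 ± 0.42, adjusted p = 0.0238). The gap junction gene Inx3 rose, from 666, 1064, 1473 and 889 to 5426 (difference 2.41 ± 0.46, adjusted p = 0.0244). In both cases larval brain lay outside the embryo culture range. It also lay below that range for 29.6% of all genes and above it for 26.2%. Both calls were lost without embryo culture d (adjusted p = 0.0652 and 0.0708). That of nrv1 was also lost with median centring (adjusted p = 0.0595), and that of Inx3 with either 3′ ratio as a covariate (adjusted p = 0.0912 and 0.232). Their median difference as a list was -0.21, against -0.07 over all genes.

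**Figure D4:**
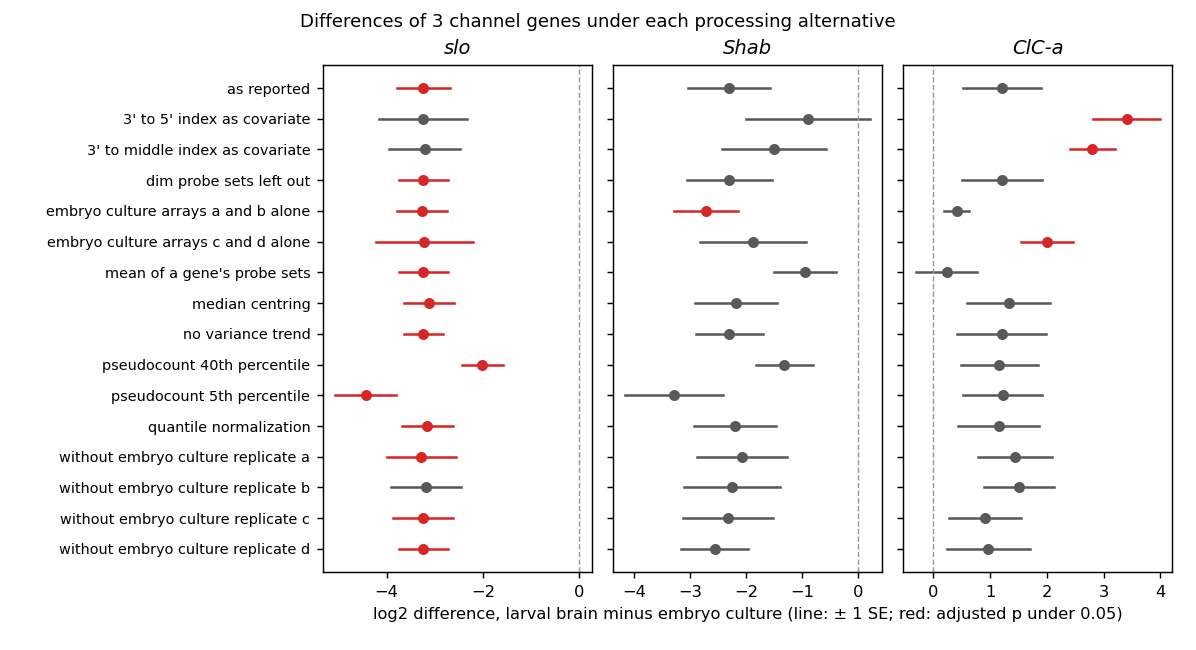
Log2 difference (± 1 SE) of slo, Shab and ClC-a as reported and under each processing alternative, with red for an adjusted p under 0.05. The slo difference ranges from -4.44 to -2.02 over the alternatives and moves most with the pseudocount, the Shab difference shrinks to -0.90 with the 3′ to 5′ ratio, and the ClC-a difference grows to 3.41.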

How the data were processed

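Per the labels, total RNA of 5 samples was hybridised to 1-colour arrays. The authors deposited linear signal intensity values with control probe sets. Their trimmed mean (2% off each end) lies between 500.06 and 500.08 on each array, so the deposited intensities were scaled by array. For software and background correction, the details were not given in the sources used here. Symbols came from the array annotation (12443 probe sets with 1 symbol, 327 with several, 1196 with none), with 12394 matched by Entrez identifier to a RefSeq table on Release 6, which changed 0 symbols. No 2 arrays shared more than 14 identical values.

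Intensities were tested as log2(intensity + 47.4, the 20th percentile of all values) with limma 3.58.1 in R 4.3.3 (lmFit, eBayes with trend, two-sided), Benjamini-Hochberg over 13966 probe sets, threshold 0.05. Only embryo culture supplies a spread, with 3 residual degrees of freedom (9.11 when moderated). Larval brain, with 1 array, is taken to vary as embryo culture does. A gene is represented by the probe set whose 2 group means of log2 values average highest. A bound sets a dim group to its arrays' background and averages log2 values within a group. The number of arrays limits the precision. Tables and plots used Python 3.11.15, NumPy 2.4.6, pandas 2.3.3, SciPy 1.17.1 and matplotlib 3.10.9. Members, lists and the background limit were chosen with earlier results of these data known. Each measured member is named, and of the related genes those past the threshold. The alternatives are those of the closing section.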

Additional observations from a re-analysis of the deposited data

Results flagged for a closer look

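Among the 4 embryo culture arrays, 3 of the 29 channel genes had 1 array far from the others by Dixon's test at the 95% level, which chance gives in about 5% of genes. Ca-alpha1T stood at 292.8 on a (ratio 0.831), Task7 at 32.5 on c (ratio 0.922) and stj at 123.5 on b (ratio 0.907). The values of Task7 and stj are under the background of their arrays, and that of Ca-alpha1T is above it. Without a the difference of Ca-alpha1T was 1.19, without c that of Task7 was 0.62 and without b that of stj was 0.24, none past the threshold, where over all 4 arrays these differences were 0.87, 0.52 and -0.14.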

How the results depend on the processing

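Over 15 alternatives the fall of slo kept its sign, with differences from -4.44 to -2.02 and adjusted p-values from 0.00469 to 0.121. It was lost in 3: without embryo culture b, with the 3′ to middle ratio as a covariate (difference -3.21) and with the 3′ to 5′ ratio (-3.25). Leaving out 1 array gave -3.28 to -3.18. The count of called channel genes was 0 to 1 when 1 array was left out. It was 3 with embryo culture a and b alone (slo, Shab and Ih) and 2 with c and d alone (slo and ClC-a). The fits on a pair of embryo culture arrays measure spread within that pair only, so their counts are less certain. Their SEs are moderated over genes, so they need not reflect the spread of a gene's own values in the pair. The count stayed at 1 in both covariate fits, where ClC-a was called in place of slo. Among related genes the count of 2 went to 0 without the variance trend, to 1 with median centring and with the 3′ to 5′ ratio, and to 0 to 2 when 1 array was left out. It rose with embryo culture a and b alone and with c and d alone. Median centring moved the median of all genes from -0.07 to 0.05 and that of the channel genes from -0.14 to -0.02. Quantile normalization gave 0.00 and -0.01. Of 423 gene and alternative pairs, 372 kept sign and call, 3 lost and 5 gained a call, and 43 changed sign without a call, in 15 genes, which have no settled direction: NaCP60E, para, Ca-alpha1D, Sh, Shal, sei, SLO2, Irk1, Irk2, sand, tipE, Teh1, stj, Ih and na. Shab, Elk, Irk3, SK, Shaw, Hk and ClC-a kept their sign in each alternative run. All groups rest on 1 larval brain array, with 4 in embryo culture. No paired analysis was possible because the groups share only the replicate letter a.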
